A study of Homo sapiens with 6 samples.

Results

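SERPINB2 and the other numbered serpins of clade B, SERPINB1 to SERPINB10, were followed in T24 cells with and without knockdown of UBC9. The 10 genes were taken by symbol from the 58174 genes of the RNA-seq table, and 6 of them were expressed highly enough to be compared. The family was chosen by the rise of SERPINB2 between these same samples. The values of the members in this comparison are therefore given as a description, with the standard error (SE) of each difference and without p-values.

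T24, an established line, was derived from a human bladder cancer. The cells carried a lentiviral shRNA against UBC9 in the pLKO.1 vector (shRNA-UBC9) or a scrambled shRNA (shRNA-NC), and stable cells were selected with puromycin, with 3 samples per group. A single hairpin is given for shRNA-UBC9, and nothing states that the samples of a group came from separate cultures, so the errors and p-values cover only the spread between these samples. UBC9 is the conjugating enzyme of the SUMO pathway. Levels are given as RPKM (read counts divided by gene length and library size).

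Serpins are protease inhibitors that work by a suicide mechanism: the protease cuts an exposed loop of the serpin, the serpin changes its fold, and both stay bound in a dead complex. Clade B serpins mostly lack a classical secretion signal and act within cells or after release. Their human genes lie in a cluster on chromosome 18 and a smaller one on chromosome 6. SERPINB2, also called plasminogen activator inhibitor 2, blocks urokinase (PLAU) and tissue plasminogen activator (PLAT), and is known as an inducible gene of monocytes, keratinocytes and other stressed or inflamed cells.

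The absolute sequencing depth is unknown because only RPKM values were analysed, and the steps of low values put the depth of the libraries between 0.945 and 1.21 times that of shRNA-NC replicate 1. A set of 12 blood and muscle genes, such as HBB, LYZ and CKM, chosen after their values were seen, was above 0 in 4 libraries (shRNA-NC replicates 2 and 3, shRNA-UBC9 replicates 1 and 2) at a summed 8.58 to 9.92 RPKM. All 12 were listed at 0 in shRNA-NC replicate 1 and shRNA-UBC9 replicate 3. This split crosses the groups, so SERPINB2, SERPINB7, SERPINB5 and SERPINB8 are also given within these library sets. The epithelial keratins KRT8 and KRT18 were abundant, at 130 to 156 and 245 to 268 RPKM in shRNA-NC and 64.7 to 98.0 and 113 to 157 RPKM in shRNA-UBC9. The mesenchymal marker VIM was also abundant, at 416 to 496 RPKM in shRNA-NC and 286 to 473 RPKM in shRNA-UBC9. CDH2 and ZEB1 had 45.3 to 47.6 and 4.10 to 5.09 RPKM in shRNA-NC, and none of these mesenchymal markers was called. The epithelial marker EPCAM was low, at 0.412 to 0.986 RPKM in shRNA-NC and 0.732 to 2.51 RPKM in shRNA-UBC9. CDH1 was at 0 in 5 samples and at 0.00449 RPKM in shRNA-UBC9 replicate 1, the urothelial marker KRT20 was at 0 in all 6, and no uroplakin exceeded 0.167 RPKM, so these markers were absent or nearly so. The urothelial factors GATA3 and PPARG were expressed, at 5.23 to 9.36 and 14.5 to 20.6 RPKM in shRNA-NC and at 3.96 to 4.66 and 2.49 to 6.83 RPKM in shRNA-UBC9, and PPARG was called down (difference -2.15, SE 0.32, limma adjusted p = 0.00169).

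SERPINB2 went from one of the low genes of shRNA-NC cells to one of the most abundant transcripts of shRNA-UBC9 cells. It had 0.378, 2.13 and 0.344 RPKM in shRNA-NC replicates 1 to 3 and 501, 286 and 239 RPKM in shRNA-UBC9. The lowest shRNA-UBC9 sample was far above the highest shRNA-NC sample, and replicate 2 stood above the other shRNA-NC samples. The means were 0.952 ± 1.02 and 342 ± 139.7 RPKM (SD, n = 3 each), a ratio of 359. In bulk RNA, more cells with a transcript and more transcript per cell cannot be told apart. Among all genes of the table, SERPINB2 ranked 12569, 9535 and 12816 by RPKM in the shRNA-NC samples and 39, 90 and 123 in the shRNA-UBC9 samples. The fitted difference was 8.70 (SE 0.58) on the scale of log2(RPKM + 0.1), on which all differences below are given and which understates changes of low genes. It was 9.46 without shRNA-NC replicate 2, the largest value when any 1 library was left out, and 8.30 was the smallest. It was 8.57 within the 4 libraries with blood and muscle traces and 8.97 between the other 2 libraries.

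**Figure D1:**
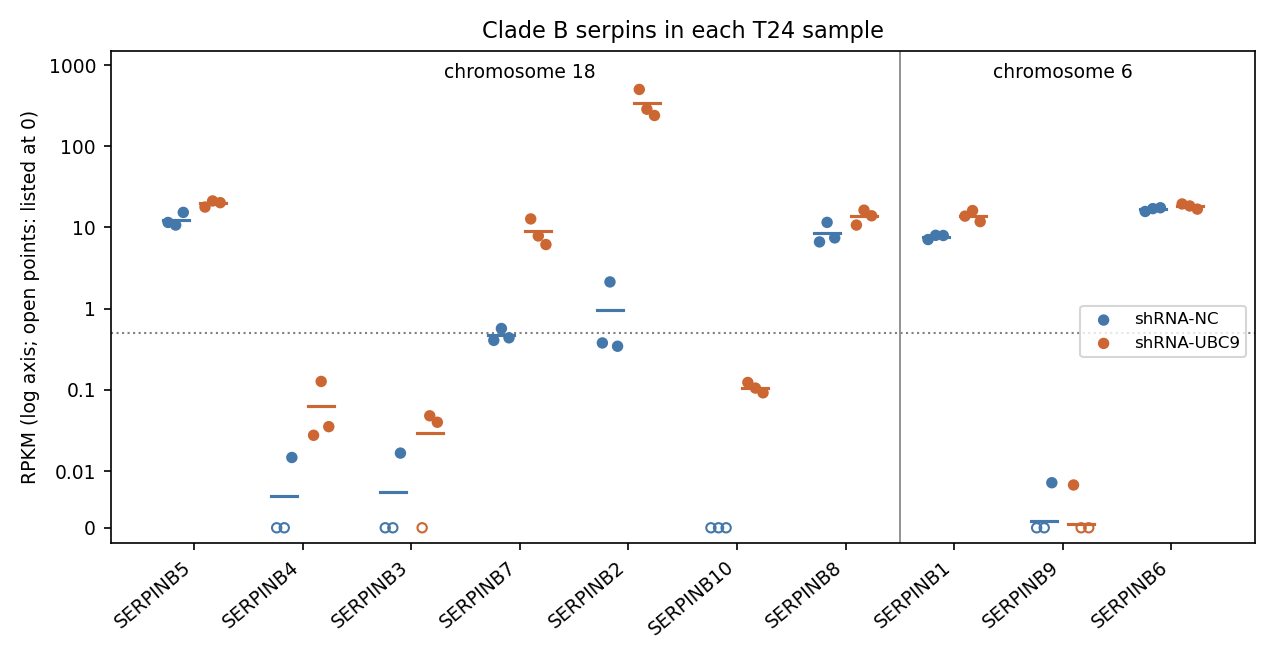
RPKM of the 10 clade B serpins in each sample on a log axis, with values listed at 0 drawn at the bottom. Points are samples, short bars are group means of 3 samples, and the dotted line marks 0.5 RPKM; SERPINB2 moves from 0.344 to 2.13 RPKM in shRNA-NC to between 239 and 501 RPKM in shRNA-UBC9, and SERPINB7 from 0.407 to 0.569 RPKM to between 6.15 and 12.7 RPKM.

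SERPINB7, known as megsin from kidney mesangial cells and also expressed in skin, was the other member called a DEG, a gene with a log2 difference beyond 1 in size and an adjusted p below 0.05, as 5.2% of all tested genes were in the upward direction. SERPINB7 had 0.407, 0.569 and 0.437 RPKM in shRNA-NC and 12.7, 7.86 and 6.15 RPKM in shRNA-UBC9. The groups did not overlap, and the order of the shRNA-UBC9 samples was the same as for SERPINB2. That order was not particular to neighbours: SERPINB6 and SLC22A23 on chromosome 6 had it, and SERPINB1, SERPINB5 and SERPINB8 did not. The means were 0.471 ± 0.0865 and 8.92 ± 3.42 RPKM, a ratio of 18.9, and the fitted difference was 3.93 (SE 0.25). It ranged from 3.64 to 4.16 when 1 library was left out, and was 4.08 within the 4 libraries with traces and 3.63 between the other 2. SERPINB2 and SERPINB7 both passed the expression filter, at least 0.5 RPKM in at least 3 of the 6 samples, only through the shRNA-UBC9 samples, so a difference between the groups was built into their passing.

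SERPINB2 lies at chr18:63871692-63903888 on the plus strand (GRCh38, GENCODE) and SERPINB7 at chr18:63752935-63805376 on the same strand. They are 66315 bases apart with no annotated gene wholly between them.

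SERPINB10, or bomapin, an inhibitor known from blood-forming cells, is the closest gene downstream of SERPINB2. It lies at chr18:63907958-63936111 on the same strand and starts 4069 bases beyond the annotated end of SERPINB2. SERPINB10 was listed at 0 in all 3 shRNA-NC samples and at 0.123, 0.105 and 0.0919 RPKM in the shRNA-UBC9 samples. These stood in the order of the SERPINB2 values, which genes on chromosome 6 also had. After allowing for relative depth, these values stood in the ratio of 12, 10 and 7, the smallest whole numbers that fitted within 0.05. Multiples of these numbers fit as well, so they are not read counts. None of the 50-base windows of its transcript was found in that of SERPINB2. SERPINB10 was below the filter, and only without the filter was it called higher. Another annotated gene model overlaps both the end of SERPINB2 and the start of SERPINB10. The origin of this low signal was not tested.

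SERPINB8 and SERPINB5 sit on either side of these genes and were expressed in both groups. SERPINB8, an inhibitor of the proprotein convertase furin, starts 98.3 kb downstream of the start of SERPINB2, at chr18:63970029-64019779. It had 6.63, 11.5 and 7.43 RPKM in shRNA-NC and 10.7, 16.3 and 13.9 RPKM in shRNA-UBC9, so the groups overlapped. Its fitted difference was 0.69 (SE 0.22). That value had an adjusted p below 0.05, but not in the fits without shRNA-NC replicate 1 (0.53), shRNA-NC replicate 3 (0.61), shRNA-UBC9 replicate 2 (0.55) or shRNA-UBC9 replicate 3 (0.67), nor within the 4 libraries with traces (0.51). It was also above 0.05 without the intensity trend and without the expression filter. SERPINB8 overlaps 11746 bases of HMSD on the same strand, and HMSD did not exceed 0.237 RPKM in any sample.

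SERPINB5, or maspin, belongs to the clade by sequence but does not inhibit proteases, and is known as a suppressor of tumour cell invasion in epithelia. It lies at chr18:63476958-63505085, with its start at -395 kb from that of SERPINB2, upstream. It had 11.5, 10.7 and 15.3 RPKM in shRNA-NC and 17.8, 21.2 and 20.2 RPKM in shRNA-UBC9, so the groups did not overlap. The means were 12.5 ± 2.47 and 19.7 ± 1.73 RPKM, and the fitted difference was 0.67 (SE 0.14), with an adjusted p below 0.05 but not a DEG. It was 0.60 within the 4 libraries with traces, where the adjusted p no longer passed, and 0.80 between the other 2, where SERPINB8 differed by 1.06.

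SERPINB3 and SERPINB4, the squamous cell carcinoma antigens, were close to 0 throughout. SERPINB3 was listed at 0, 0 and 0.0166 RPKM in shRNA-NC and 0, 0.0479 and 0.0399 RPKM in shRNA-UBC9. SERPINB4 was listed at 0, 0 and 0.0147 RPKM in shRNA-NC and 0.0276, 0.127 and 0.0352 RPKM in shRNA-UBC9. The pair are near copies: 24.9% of the 50-base windows of the longest coding transcript of SERPINB4 and 3.54% of its 100-base windows were found exactly in that of SERPINB3. How reads shared by both were counted is not stated. SERPINB3 also lies within the gene model of SERPINB11 on the opposite strand. The remaining clade B genes of the chromosome 18 cluster gave nothing higher: SERPINB11 and SERPINB13 were listed at 0 in all 6 samples, and SERPINB12 at 0.0226 and 0.0231 RPKM in shRNA-NC replicates 2 and 3 and at 0 elsewhere.

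The starts of SERPINB2, SERPINB7, SERPINB8 and SERPINB5 are shown because these are the chromosome 18 members that were expressed. The sequences are the 250 bases before each RefSeq start (GRCh38.p14, plus strand, 5′ to 3′). Capitals mark exact matches to a loose form of the AP-1 letters (TGANTCA, a palindrome, so both strands) and to the TATA box (TATAAA, given strand only). They also mark the cyclic AMP response element (TGACGTCA, both strands) and the NF-kappaB motif (both strands). A match is a description of letters and not a bound site. SERPINB2 is at chr18:63887455-63887704, the 3 starts of SERPINB7 are at chr18:63752807-63753056, chr18:63775168-63775417 and chr18:63777531-63777780, SERPINB8 is at chr18:63969831-63970080 and SERPINB5 at chr18:63476708-63476957. The RefSeq start of SERPINB2 lies inside the longer GENCODE gene model given above.
SERPINB2: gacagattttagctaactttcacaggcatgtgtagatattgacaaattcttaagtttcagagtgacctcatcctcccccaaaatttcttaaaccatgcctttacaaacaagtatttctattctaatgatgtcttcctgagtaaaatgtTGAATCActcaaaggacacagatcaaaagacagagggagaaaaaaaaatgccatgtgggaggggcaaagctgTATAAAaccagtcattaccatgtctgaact
SERPINB7, start 1: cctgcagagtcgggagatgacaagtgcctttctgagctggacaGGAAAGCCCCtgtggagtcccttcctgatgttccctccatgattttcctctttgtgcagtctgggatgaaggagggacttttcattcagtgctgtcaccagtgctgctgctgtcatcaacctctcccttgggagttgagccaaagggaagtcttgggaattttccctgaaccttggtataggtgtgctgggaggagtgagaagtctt
SERPINB7, start 2: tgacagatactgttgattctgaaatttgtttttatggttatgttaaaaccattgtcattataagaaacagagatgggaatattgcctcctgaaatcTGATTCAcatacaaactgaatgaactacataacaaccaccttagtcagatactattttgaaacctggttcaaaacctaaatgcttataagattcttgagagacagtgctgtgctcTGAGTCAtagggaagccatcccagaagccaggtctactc
SERPINB7, start 3: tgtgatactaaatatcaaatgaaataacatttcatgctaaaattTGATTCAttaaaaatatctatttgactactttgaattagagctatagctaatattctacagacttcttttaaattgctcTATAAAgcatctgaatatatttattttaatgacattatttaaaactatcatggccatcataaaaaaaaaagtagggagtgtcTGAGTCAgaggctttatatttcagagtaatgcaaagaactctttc
SERPINB8: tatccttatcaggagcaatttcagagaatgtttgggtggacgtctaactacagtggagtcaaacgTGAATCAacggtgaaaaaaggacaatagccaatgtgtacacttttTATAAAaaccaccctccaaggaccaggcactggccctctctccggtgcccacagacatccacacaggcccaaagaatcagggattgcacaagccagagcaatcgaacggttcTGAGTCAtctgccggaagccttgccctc
SERPINB5: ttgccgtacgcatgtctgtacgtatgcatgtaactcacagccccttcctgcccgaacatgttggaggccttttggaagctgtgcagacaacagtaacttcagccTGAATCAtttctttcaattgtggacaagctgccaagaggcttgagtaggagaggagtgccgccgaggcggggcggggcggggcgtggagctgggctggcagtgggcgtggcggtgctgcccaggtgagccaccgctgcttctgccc

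The loose letters TGANTCA stood in 5 of these 6 windows and were missing from start 1 of SERPINB7, whose capitals are the NF-kappaB motif. The stricter TGAGTCA stood only in starts 2 and 3 of SERPINB7 and in SERPINB8. Of the TGANTCA forms, SERPINB2 and SERPINB5 held only TGAATCA. In SERPINB2 the TGANTCA letters began 102 bases before the start, with the TATA letters at 30 bases before it. In SERPINB7 they began 154 and 39 bases before start 2 and 206 and 45 bases before start 3, as TGATTCA and TGAGTCA in both cases. SERPINB8 held TGAATCA at 185 and TGAGTCA at 28 bases, and SERPINB5 held TGAATCA at 146 bases. The letters TGANTCA occurred in 6.57% of the 35116 RefSeq windows of this length and TGAGTCA in 4.2%. TATAAA occurred in 6.8%, TGACGTCA in 1.65% and the NF-kappaB motif in 9.96%. Of the 10 members, 9 had a window in the RefSeq table, 14 windows in all. SERPINB1, SERPINB3, SERPINB4, SERPINB6 and SERPINB9 had no TGANTCA, no member window held TGACGTCA, and the NF-kappaB motif was found in no other member window.

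Beside the serpins, the genes around SERPINB2 did not include a DEG. The window of 1 Mb on each side held 12 genes of the table that are not members. Of these, 6 were listed at 0 in all samples and 4 could be compared: KDSR, BCL2, VPS4B and PHLPP1. None of the 4 was called by limma in either direction, beside 5.2% of all tested genes called up and 2.7% called down. By the adjusted p alone, 1 was higher and 1 lower, beside 18.8% and 18% of all tested genes. KDSR, an enzyme of sphingolipid synthesis that starts at -504 kb from SERPINB2, had 6.53, 7.53 and 6.33 RPKM in shRNA-NC and 10.2, 9.81 and 8.72 RPKM in shRNA-UBC9. It was higher by 0.49 (SE 0.10, limma adjusted p = 0.00801). BCL2, the inhibitor of apoptosis that starts at -552 kb, had 1.16, 1.18 and 0.949 RPKM in shRNA-NC and 0.424, 0.690 and 0.849 RPKM in shRNA-UBC9. Its difference was -0.70 (SE 0.24, limma adjusted p = 0.0484), and the adjusted p stayed below 0.05 in only 1 of the 6 fits with 1 library left out, that without shRNA-UBC9 replicate 3 (-0.89). VPS4B, of the ESCRT machinery, differed by -0.23 (SE 0.09, limma adjusted p = 0.0814) and PHLPP1, a phosphatase of AKT, by -0.12 (SE 0.11, limma adjusted p = 0.451).

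Over the whole of chromosome 18, members included, 9 of 162 tested genes were called up, or 5.56%, and 5 were called down. The 9 include SERPINB2 and SERPINB7, so this share is not independent of the members. Of all tested genes, 5.2% were called up and 2.7% called down, 646 and 335 of 12428. The median difference was -0.02 on chromosome 18 and -0.17 for the 4 neighbours. The 4 tested serpins of the cluster differed by 8.70, 3.93, 0.69 and 0.67, and their median of 2.31 was near none of them. That median includes SERPINB2, which chose the family, and SERPINB7, which passed the filter only through shRNA-UBC9. For the 2 tested members on chromosome 6 the median was 0.48.

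**Figure D2:**
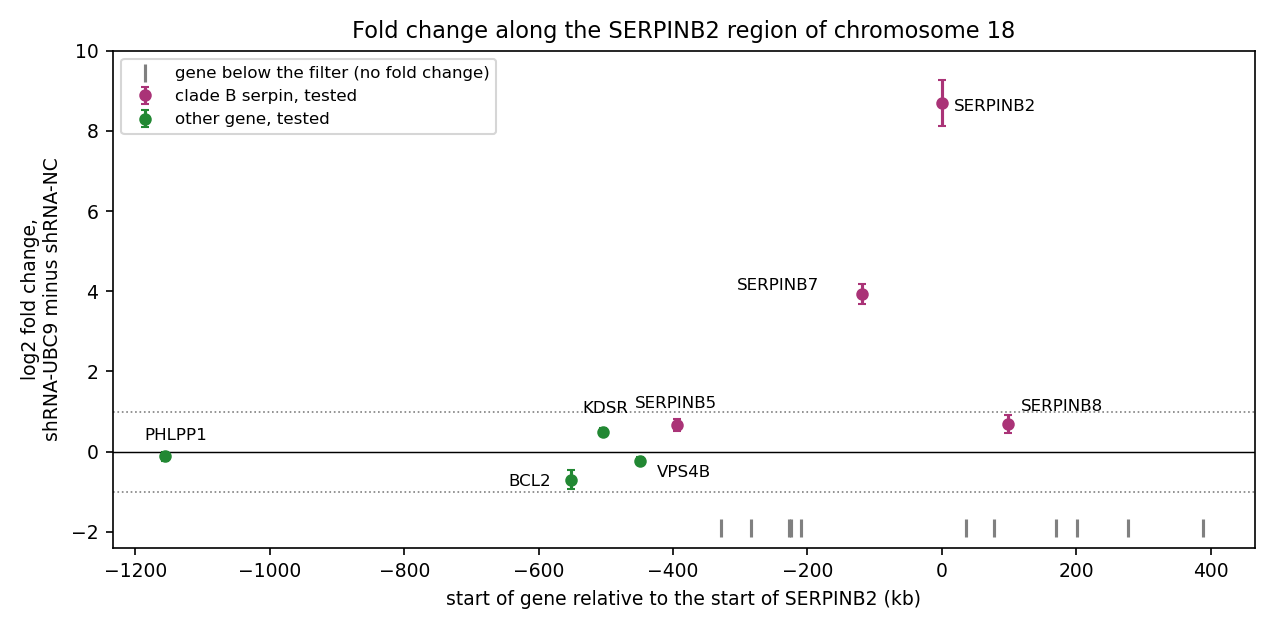
Difference between shRNA-UBC9 and shRNA-NC in log2(RPKM + 0.1) for tested genes within 1 Mb of SERPINB2, against the distance of each gene's start from that of SERPINB2 in kb. Points are fitted values with SE bars, dotted lines mark 1 and -1, and grey ticks are genes below the filter; only SERPINB2 at 8.70 and SERPINB7 at 3.93 lie beyond the lines.

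The members on chromosome 6 serve as the same family at another place. SERPINB1, the inhibitor of neutrophil elastase, cathepsin G and proteinase 3, lies at chr6:2832332-2841959 on the minus strand. It had 7.09, 7.997 and 7.96 RPKM in shRNA-NC and 13.8, 16.1 and 11.8 RPKM in shRNA-UBC9. The groups did not overlap, and the means were 7.68 ± 0.511 and 13.9 ± 2.17 RPKM. The fitted difference was 0.84 (SE 0.12), with an adjusted p below 0.05 but not a DEG, and ranged from 0.73 to 0.95 when 1 library was left out. SERPINB6, an inhibitor of cathepsin G and other trypsin-like and chymotrypsin-like proteases, lies at chr6:2948159-2972165. It had 15.7, 17.0 and 17.5 RPKM in shRNA-NC and 19.5, 18.4 and 16.8 RPKM in shRNA-UBC9, overlapping groups that differed by 0.12 (SE 0.09), which was not called. SERPINB9, the inhibitor of granzyme B, lies between them at chr6:2887270-2903309. It is 45310 bases from SERPINB1 and 44849 bases from SERPINB6, with 2 annotated genes wholly within each gap. It was listed at 0.00718 RPKM in shRNA-NC replicate 3, at 0.00673 RPKM in shRNA-UBC9 replicate 1 and at 0 in the other samples.

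Within 1 Mb of SERPINB9, 22 genes of the table are not members. Of these, 9 could be compared and 1 was called up, beside 5.2% of all tested genes. SLC22A23, a member of an organic ion transporter family that starts 554 kb away, rose from 0.448, 0.587 and 0.458 RPKM to 4.38, 1.91 and 1.498 RPKM, by 2.03 (SE 0.35), and by 1.59 without shRNA-UBC9 replicate 1. It too passed the filter through the shRNA-UBC9 samples, with 1 shRNA-NC sample above 0.5 RPKM, so no p is given.

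Of the 6 members compared, 2 were called up and 0 called down, beside 5.2% and 2.7% of all tested genes, with no member lower at an unadjusted p below 0.05. By the adjusted p alone, whatever the size of the difference, 5 of the 6 were higher and 0 lower, beside 18.8% and 18% of all tested genes. All shRNA-UBC9 samples were above all shRNA-NC samples in 4 of the 6, SERPINB1, SERPINB2, SERPINB5 and SERPINB7, as in 3195 of the 12428 tested genes. The median difference was 0.76 over the 6 and 0.00 over all tested genes. SERPINB2 chose the family and SERPINB2 and SERPINB7 passed the filter through the shRNA-UBC9 samples, so these counts support nothing by themselves.

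The make-up of the family changed with SERPINB2. The 10 members summed to 41.8, 49.98 and 49.0 RPKM in shRNA-NC, of which SERPINB2 was 0.905%, 4.27% and 0.702%. They summed to 576, 366 and 308 RPKM in shRNA-UBC9, of which SERPINB2 was 87.0%, 78.1% and 77.6%. Without SERPINB2 the sum was 41.4 to 48.7 RPKM in shRNA-NC and 69.0 to 80.2 RPKM in shRNA-UBC9. By mean RPKM, which is corrected for gene length, the order in shRNA-NC was SERPINB6, SERPINB5, SERPINB8, SERPINB1, SERPINB2 and SERPINB7. The samples of SERPINB5 and SERPINB8, of SERPINB8 and SERPINB1, and of SERPINB2 and SERPINB7 overlapped. In shRNA-UBC9 the order was SERPINB2, SERPINB5, SERPINB6, SERPINB1, SERPINB8 and SERPINB7, and only SERPINB2 from SERPINB5 and SERPINB6 from SERPINB1 were separated by a gap.

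**Figure D3:**
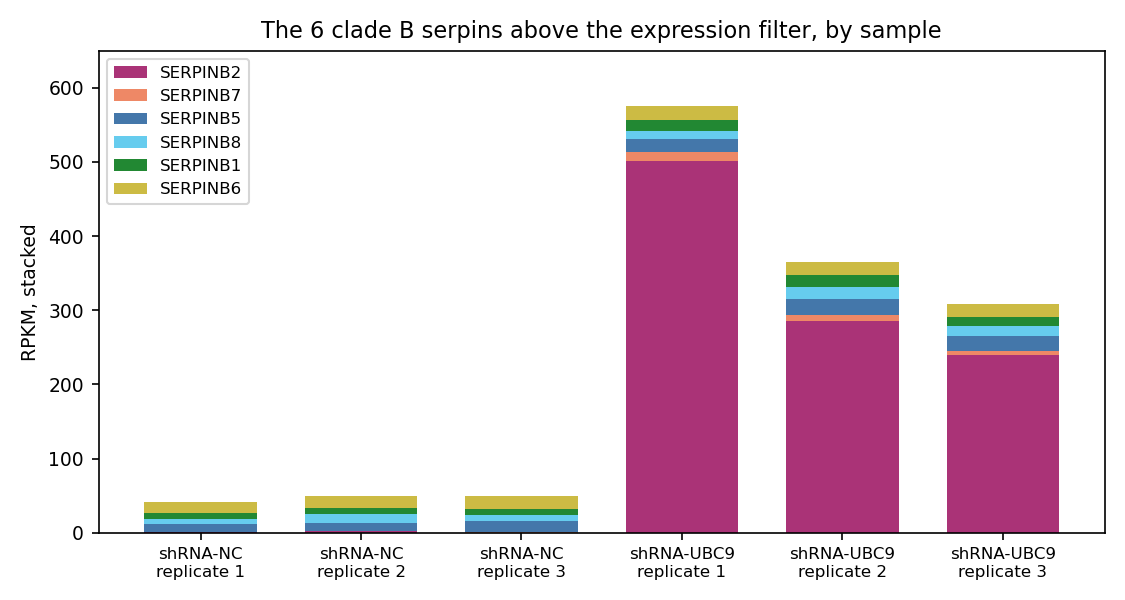
RPKM of the 6 clade B serpins above the filter in each of the 6 samples, stacked by gene, on a linear axis from 0. The sum over all 10 members is 41.8 to 49.98 RPKM in shRNA-NC and 308 to 576 RPKM in shRNA-UBC9, where SERPINB2 makes up 77.6% to 87.0% of it.

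Serpins of other clades were compared as the nearest relatives. Of 21 such genes listed, 5 could be compared. Of these, 1 was called up and 0 down by limma, beside 5.2% and 2.7% of all tested genes. By the adjusted p alone, 2 were higher and 0 lower, beside 18.8% and 18% of all tested genes. SERPIND1, heparin cofactor II, an inhibitor of thrombin, rose from 0.0919, 0.0452 and 0.104 RPKM to 4.41, 3.41 and 2.98 RPKM, by 4.36 (SE 0.22). It was the gene called up and passed the filter only through the shRNA-UBC9 samples, so a difference was built in and no p is given. SERPINH1, the collagen chaperone, was higher by 0.37 (SE 0.10, limma adjusted p = 0.0184). SERPINE2, or protease nexin 1, had 6.51, 9.50 and 7.22 RPKM in shRNA-NC and 28.4, 12.4 and 8.02 RPKM in shRNA-UBC9, overlapping groups with a difference of 0.88 (SE 0.39, limma adjusted p = 0.114). It was 0.38 without shRNA-UBC9 replicate 1, and 1.28 without shRNA-UBC9 replicate 3, where it was called up.

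Of the 2 proteases that SERPINB2 blocks, PLAT was called down and PLAU was not called. In a list of 9 genes of plasminogen activation, 7 were compared. Of these, 1 was called up (PLAUR) and 1 down (PLAT), beside 5.2% and 2.7% of all tested genes. PLAUR, the receptor of urokinase, rose from 13.0, 12.3 and 10.9 RPKM to 31.0, 32.8 and 37.5 RPKM, by 1.48 (SE 0.11, limma adjusted p = 6.04e-05). PLAT had 28.3, 19.5 and 40.2 RPKM in shRNA-NC and 14.3, 7.09 and 9.26 RPKM in shRNA-UBC9. It fell by 1.51 (SE 0.30, limma adjusted p = 0.00593), but within the 4 libraries with traces the value of -1.47 had an adjusted p of 0.0575. PLAU had 52.1, 78.9 and 39.3 RPKM in shRNA-NC and 54.2, 70.6 and 77.3 RPKM in shRNA-UBC9, overlapping groups with a difference of 0.29 (SE 0.24, limma adjusted p = 0.374). By the adjusted p alone, the plasminogen receptor PLGRKT was higher by 0.53 (limma adjusted p = 0.00371) and ANXA2 differed by -0.58 (limma adjusted p = 0.00458), and plasminogen itself (PLG) was listed at 0 in all 6 samples.

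Of 15 proteases known as targets of clade B serpins, 8 were compared. Of these, 2 were called up (CTSS and CASP1) and 2 down (PLAT and CTSV), beside 5.2% and 2.7% of all tested genes. CTSS, cathepsin S, a target of SERPINB3, rose from 0.269, 0.601 and 0.301 RPKM to 14.0, 17.5 and 9.42 RPKM, by 4.82 (SE 0.29). It passed the filter through the shRNA-UBC9 samples, with 1 shRNA-NC sample above 0.5 RPKM, so no p is given. CASP1, the inflammasome protease, rose by 1.88 (SE 0.40, limma adjusted p = 0.00759). CTSV, cathepsin V, fell from 2.84, 3.54 and 3.48 RPKM to 0.838, 1.23 and 1.61 RPKM, by 1.39 (SE 0.21, limma adjusted p = 0.0019), and its relative CTSL was higher by 0.95 (SE 0.11, limma adjusted p = 6.34e-04). FURIN, the target of SERPINB8, had 30.4, 21.5 and 28.9 RPKM in shRNA-NC and 36.2, 36.9 and 43.4 RPKM in shRNA-UBC9, higher by 0.54 (SE 0.14, limma adjusted p = 0.0203) without passing the fold threshold. Of the proteases of neutrophil and lymphocyte granules, CTSG, ELANE and PRTN3 did not exceed 0.105 RPKM, and GZMB was listed at 0 in all 6 samples.

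**Figure D4:**
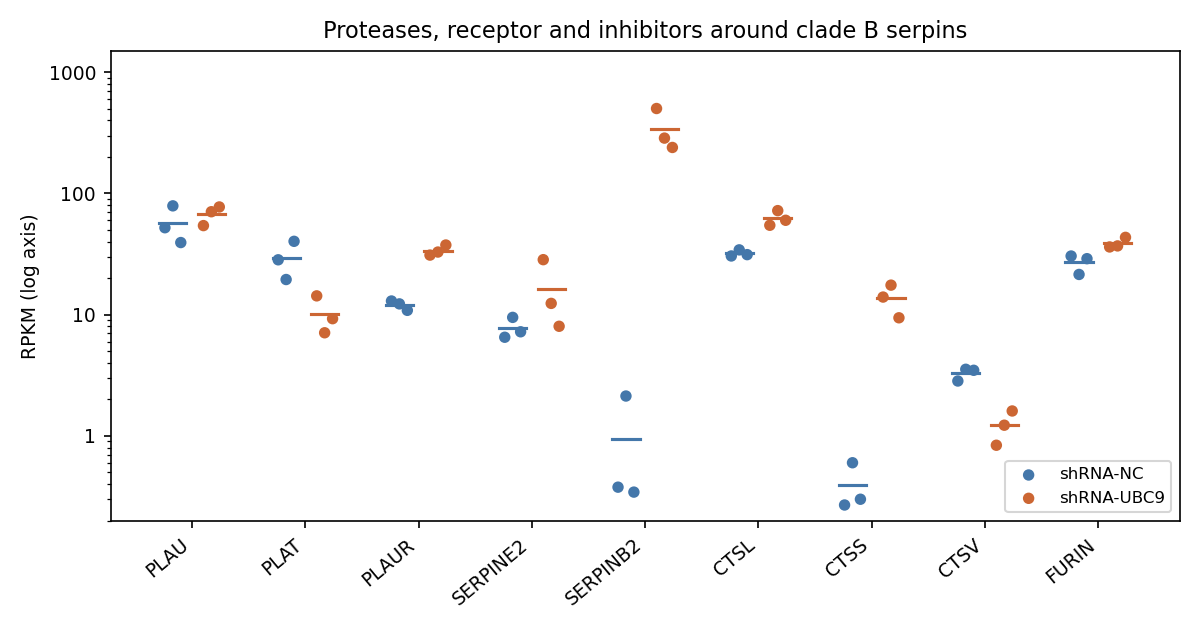
RPKM in each sample, on a log axis, of plasminogen activators, their receptor PLAUR, the inhibitors SERPINE2 and SERPINB2, and other proteases that clade B serpins are known to inhibit. Points are samples and short bars are group means of 3 samples; CTSS and PLAUR are higher and PLAT and CTSV lower in shRNA-UBC9, and the samples of PLAU overlap.

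Clade B serpins are also genes of squamous epithelium and of monocytes, so markers of both were read. Of 24 squamous differentiation genes, 12 were listed at 0 in all samples, among them IVL and KRT5, and 4 were compared. Of these 4, 1 was called up and 0 down, beside 5.2% and 2.7% of all tested genes. PI3, the elastase inhibitor elafin, was listed at 0, 0 and 0.0512 RPKM in shRNA-NC and at 38.0, 48.3 and 19.2 RPKM in shRNA-UBC9, a difference of 8.16 (SE 0.33). It passed the filter only through the shRNA-UBC9 samples, so a difference was built in and no p is given. DSC3, a desmosomal cadherin, differed by -0.69 (SE 0.11, limma adjusted p = 0.00219). S100A8 and S100A9, the other genes compared, are themselves among the blood and muscle trace genes. Their listing at 0 in the 2 libraries without traces was therefore fixed by the choice of that set. Elsewhere they had 0.823 to 2.75 RPKM, and neither was called. Of 6 leukocyte markers, 2 were compared and 1, CD68, was called up, beside 5.2% of all tested genes. CD68 had 3.24, 1.53 and 3.17 RPKM in shRNA-NC and 18.6, 48.4 and 29.4 RPKM in shRNA-UBC9 (difference 3.52, SE 0.37, limma adjusted p = 3.76e-04). The list summed to 2.09 to 4.09 RPKM in shRNA-NC and 19.6 to 49.4 RPKM in shRNA-UBC9, nearly all of it CD68. CD14, a monocyte receptor and the other marker compared, had 0.657, 0.260 and 0.642 RPKM in shRNA-NC and 0.706, 0.692 and 0.752 RPKM in shRNA-UBC9, a difference of 0.47 (SE 0.30, limma adjusted p = 0.25). The pan-leukocyte marker PTPRC did not exceed 0.102 RPKM and was listed at 0 in shRNA-NC replicate 1 and in shRNA-UBC9 replicate 3. These are the 2 libraries without blood and muscle traces.

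SERPINB2 mRNA is known to be short-lived through AU-rich elements, so 6 genes of that decay pathway were read. All 6 were compared, 0 were called up and 1, ZFP36L2, was called down, beside 5.2% and 2.7% of all tested genes. ZFP36L2, a decay factor, had 15.2, 14.8 and 15.6 RPKM in shRNA-NC and 5.50, 7.52 and 8.55 RPKM in shRNA-UBC9 and fell by 1.09 (SE 0.15, limma adjusted p = 0.00121). Without shRNA-UBC9 replicate 1 the value was -0.92 and no longer a DEG. Its relative ZFP36 was higher by 0.88 (SE 0.15, limma adjusted p = 0.00312), and ELAVL1, a stabilising factor, differed by -0.31 (limma adjusted p = 0.0251).

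Over the 6 samples, the tested genes whose log2(RPKM + 0.1) followed SERPINB2 most closely were PDE4DIP, EPB41L3, SLC37A1, NAB1 and ATP6V1H. The difference between the 2 groups sets most of this likeness, and the 5 genes differed by 2.04, 1.4997, 1.66, 0.80 and 0.42 between them. SERPINB7 stood at rank 76 in this order and SERPINB1 at rank 858. SERPINB5, SERPINB8 and SERPINB6 followed at ranks 2606, 2619 and 3640.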

How the data were processed

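RNA-seq of T24 cells covered 3 samples of shRNA-NC and 3 of shRNA-UBC9, grouped and numbered by their labels. Poly(A) RNA was sequenced on an Illumina HiSeq. Reads were trimmed and mapped by the authors to hg38 with the CLC Biomedical Genomics Workbench at default settings, and the deposited values are RPKM per gene. The annotation release, the use of strand and the handling of reads with several matches are not given in the sources used here. RPKM is not corrected for RNA composition.

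No count model was used. Genes with at least 0.5 RPKM in at least 3 of 6 samples (12428 of 58174) were compared on log2(RPKM + 0.1) with limma 3.58.1 in R 4.3.3 (lmFit, eBayes with an intensity trend), with Benjamini-Hochberg adjustment over all of them. Genes with a log2 difference beyond 1 in size and an adjusted p below 0.05 were called DEGs. Every p is two-sided, and with 3 against 3, the smallest p of an exact permutation test would be 0.1. The code was tested on simulated data.

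The members and the gene lists were chosen with earlier results of these data known. The genes named were the 10 members, SERPINB11 to SERPINB13, compared genes within 1 Mb of SERPINB2 and SERPINB9, called and marker genes of the lists and the 5 genes most like SERPINB2 by Pearson correlation. HMSD, CTSG, ELANE, PRTN3 and single list genes that were not called were named after their values were seen. Some genes of the design are not reported here. Positions came from GENCODE 44, which placed 90.5% of the tested genes, and sequences from RefSeq. Alternatives covered pseudocounts, filters, scaling, the trend, a replicate block and each library left out. A term for the set of 4 libraries with blood and muscle traces, and a fit within that set, were added after seeing the data. Python 3.11.15, pandas 2.3.3, numpy 2.4.6 and matplotlib 3.10.9 were used.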

Additional observations from a re-analysis of the deposited data

How the results depend on the processing

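The 981 DEGs among all tested genes became 552 with a pseudocount of 1 and 552 with a filter of at least 1 RPKM in all 6 samples, and 799 to 964 with 1 library left out. The 2 members called up remained 2 with any 1 library left out, and fell to 0 under the filter of at least 1 RPKM in all samples, because that filter removes SERPINB2 and SERPINB7. SERPINB2 chose the family, and both genes passed the main filter only through the shRNA-UBC9 samples. Their staying called, here and in the fits below, therefore supports nothing by itself. Without a filter, 813 genes were called up and 393 down, and 3 members were called up, SERPINB10 being added. No member was called down and no chromosome 18 neighbour was called under any of these alternatives, 0 in each fit with 1 library left out. SERPINB2 ranged from 8.30 to 9.46 with 1 library left out, was 7.502 with a pseudocount of 1 and 8.93 with one of 0.01.

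Samples with the same replicate number did not deviate together (correlations of deviations -0.367, 0.0728 and -0.17), and the numbers were not used as pairs. The highest correlation across groups, 0.526, was between shRNA-NC replicate 1 and shRNA-UBC9 replicate 3, the libraries without traces. With 3 samples per group, these values cannot show that no pairing exists. With a replicate block 974 genes were called, 2 members were called up, none down, and SERPINB2 was 8.70. Within the 4 libraries with traces 838 genes were called and 2 members called up, and with the library set as a term 978 and 2.

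Of 691 values of 45 named or listed genes under these alternatives, 672 kept their direction and call, none of those called reversed, 5 lost the call (PLAT, CTSV, ZFP36L2, PDGFRB and EPB41L3) and 14 gained one, all of them within the lists. With a pseudocount of 1, CTSV was -0.96, PDGFRB -0.55 and EPB41L3 0.52. The unknown depth limits what the values near 0 of SERPINB3, SERPINB4, SERPINB9 and SERPINB10 can show.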
